A study of Mus musculus with 12 samples.

Results

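The cytosolic HSP70 and HSP90 chaperones were followed as 10 mouse genes: the HSP70 genes Hspa1a, Hspa1b, Hspa1l, Hspa2 and Hspa8, the HSP110-class genes Hspa4, Hspa4l and Hsph1, and the HSP90 genes Hsp90aa1 and Hsp90ab1. Members were taken by gene symbol, also where a row carried several symbols, and a gene with several rows was represented by the row with the highest mean. All 10 had a row in both tables of the study, of 24711 named gene rows in the cell line and 36823 in spermatocytes. Hspa2, Hspa1l and Hspa4l, which are best known from male germ cells, were set against the other 7.

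RNA sequencing was done on 12 libraries, 3 in each of 4 groups. GC2, an immortalised line described in the labels as mouse spermatocytes, was studied as control cells and as cells with PHB knockdown. Spermatocytes enriched from enzyme-digested testis tubules by Hoechst DNA staining and flow sorting came from control mice and from Phb conditional knockout (cKO) mice. Phb encodes prohibitin, a scaffold protein of the inner mitochondrial membrane. The knockdown method, the Cre driver and floxed allele of the cKO, and the strain and age of the mice were not given in the sources used here. In the design text the authors speak of biological replicates but name no culture or animal for any of them, so the p-values reflect the spread between these libraries, part of which may be technical.

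HSP70 proteins hold unfolded stretches of other proteins and let them go in a cycle driven by ATP, with J-domain proteins loading the substrate and HSP110-class proteins exchanging the nucleotide. HSP90 dimers act later, on nearly folded kinases, steroid receptors and other clients. Hspa8 and Hsp90ab1 are the forms made at all times in most cells, Hspa1a and Hspa1b are switched on by heat and other stress, and Hspa2 is a germ cell HSP70 that appears in meiosis and is needed to complete it.

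Values are FPKM, fragments scaled to transcript length and library size, given as mean ± SD over 3 libraries, control first. Fold changes (with their SE) were taken on log2(FPKM + 1), where low genes appear to change less than they do, and a change was called at an adjusted p under 0.05 (limma, Benjamini-Hochberg over all tested rows). The FPKM totals were 194949 to 206711 in GC2 and 289707 to 297362 in spermatocytes. Absolute depth is not given, but from the steps between low values each library held 0.782 to 1.27 times the depth of the first control library in GC2 and 0.767 to 1.07 times in spermatocytes, with cKO replicate 2 the shallowest. Phb itself fell from 54.3 ± 2.15 to 20.02 ± 2.31 FPKM in GC2 and from 13.3 ± 0.634 to 11.6 ± 0.241 in spermatocytes, though a value per gene is no check of a deleted exon. Its partner Phb2 was at 31.5 ± 2.18 and 30.6 ± 0.793 FPKM in GC2 and at 23.04 ± 0.976 and 26.99 ± 0.215 in spermatocytes. In GC2 the spermatocyte label was not borne out by its markers. Of 18 pachytene and diplotene markers 8 had a row, and their sum was 15.2 to 16.95 FPKM in controls, of which Tbpl1 made up 13.2 ± 1.19. Ldhc was listed at 0 in every control library and Sycp3 averaged 0.0333 FPKM, while fibroblast markers summed to 737 to 793 FPKM.

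The 10 genes held very different levels in control spermatocytes, and the order had no overlap between neighbours. Hsp90ab1 stood first at 435 ± 0.991 FPKM, followed by Hsp90aa1 at 419.95 ± 1.62, Hspa2 at 318 ± 1.40 and Hspa8 at 155 ± 13.7. Hspa4 followed at 71.3 ± 0.572, the row of Hspa4l at 30.3 ± 0.187, Hspa1l at 14.4 ± 0.526, Hsph1 at 11.4 ± 0.38, Hspa1b at 6.67 ± 0.0416 and Hspa1a at 5.76 ± 0.182. In cKO spermatocytes Hsp90ab1 stayed first at 746 ± 2.73, Hspa8 and Hsp90aa1 overlapped next, Hspa4 followed at 51.7 ± 0.421, and then Hspa2 at 30.8 ± 0.716. Hspa1b and Hspa1a followed it, at 22.3 ± 0.746 and 17.7 ± 0.329, and Hspa1l was last at 2.07 ± 0.546. Control GC2 cells had the order Hsp90ab1, Hsp90aa1, Hspa8, Hspa4, Hsph1, Hspa4l and Hspa1l without overlap, and the remaining Hspa1b, Hspa1a and Hspa2 lay at or near 0 and overlapped.

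**Figure D1:**
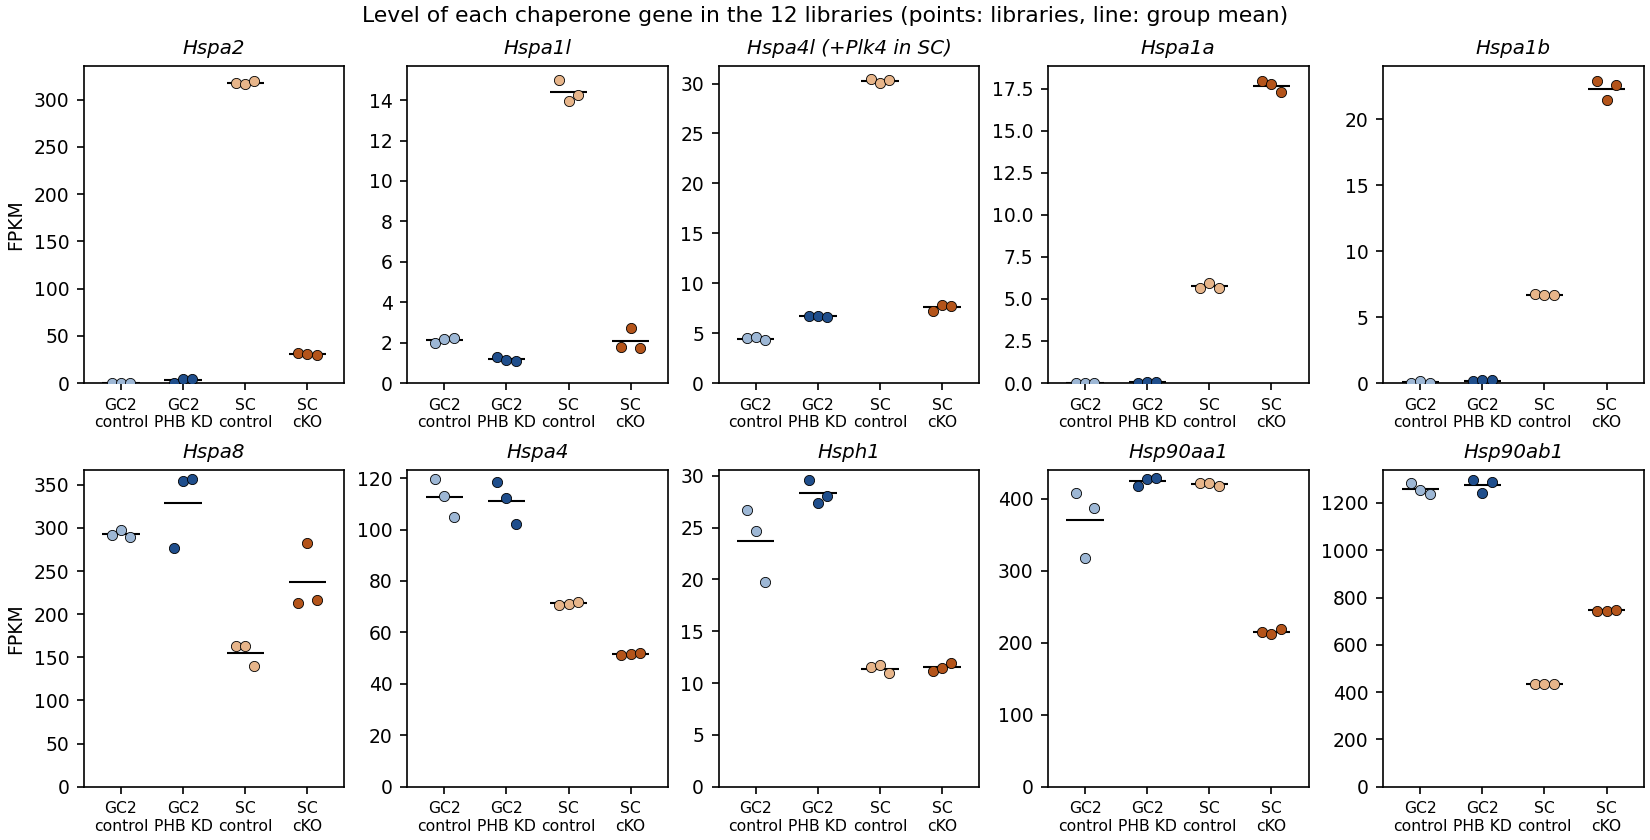
Level in FPKM of each of the 10 genes in the 12 libraries, with 1 panel per gene, each on its own linear axis from 0; each point is 1 library of control or PHB knockdown (KD) GC2 cells or of control or cKO spermatocytes (SC), and the line is the group mean. Hspa2 lies at 317 to 319 FPKM in control spermatocytes and 30.04 to 31.45 in cKO spermatocytes, and it is listed at 0 in 4 of the 6 GC2 libraries; the spermatocyte row of Hspa4l is shared with Plk4.

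The first comparison asked how the chaperones differed between cKO and control spermatocytes. Hspa2, Hspa1l and the row that Hspa4l shares with Plk4 fell, the stress-induced pair Hspa1a and Hspa1b rose about 3-fold, and the 2 HSP90 genes moved in opposite directions. Of the 10 member rows tested, 9 changed, 4 of them upward and 5 downward, the shared row among the latter. Over all 15957 tested rows 79.4% were called, 40.9% higher and 38.5% lower, so the count alone lay near the background. The median log2 fold change was -2.34 for the 3 germ cell rows, 0.60 for the other 7 and 0.047 for all tested rows. In 9 of 10 members the groups did not overlap, against 81.8% of all tested rows.

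Spermatocyte markers and markers of other testis cells moved in the same libraries. Of 18 pachytene and diplotene markers 17 fell and 0 rose, and their summed level was 2999 to 3046 FPKM in control and 275 to 278 in cKO libraries. All 11 spermatid markers fell, with sums of 1001 to 1036 against 116 to 120 FPKM (Tex101, the most abundant of them, was at 109 ± 1.83 in cKO). Of 8 leptotene and zygotene markers 4 rose and 3 fell, and of 12 spermatogonial markers 2 rose and 7 fell, with sums of 393 to 396 against 402 to 409 FPKM. Sertoli cell markers rose in 12 of 14 with 0 lower (809 to 895 against 3354 to 3541 FPKM summed), led by Clu at 296 ± 46.8 and 1270.2 ± 92.7 FPKM. Leydig cell markers rose in 7 of 7 (56.5 to 58.1 against 319 to 349 FPKM summed). Immune markers rose in 6 of 8 and fell in 1, myoid and endothelial markers rose in 8 of 9 and fell in 1, and fibroblast markers fell in 4 of 6. The share of mitochondrially encoded genes in the summed FPKM was 12.2% to 13.6% in control and 17.1% to 19.5% in cKO spermatocytes. None of these lists had a marker listed at 0 in every library of a group. In sorted bulk cells, fewer cells of a type and less RNA per cell cannot be told apart, and the part of cell composition in the results that follow was not tested.

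Hspa2 (ENSMUSG00000059970.7, chromosome 12, 76404176 to 76406938, plus strand, GRCm38) encodes the HSP70 of meiotic germ cells, which associates with the synaptonemal complex. It was at 317.2, 316.54 and 319.23 FPKM in control and 31.45, 30.96 and 30.04 in cKO libraries. The groups were far apart and each was tight. The control level was 10.3 times the cKO level, or -3.32 as a log2 fold change (SE 0.024, adjusted p = 7.0e-09). The median of the pachytene and diplotene markers, by comparison, was -4.19.

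Hspa1l (ENSMUSG00000007033.4, chromosome 17, 34972703 to 34979285, plus strand, 2 exons) encodes a testis HSP70 best known from spermatids. It was at 14.98, 13.96 and 14.25 FPKM in control and 1.77, 2.7 and 1.74 in cKO libraries. The cKO library with the highest value was replicate 2, the shallowest, and it still lay far below every control. The log2 fold change was -2.34 (SE 0.124, adjusted p = 6.7e-06), with a control level 6.95 times that of the cKO.

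Hspa4l (ENSMUSG00000025757.12, chromosome 3, 40744495 to 40796103, plus strand) encodes an HSP110-class protein that is abundant in male germ cells. In spermatocytes its only row also carried the name of Plk4, a kinase gene of centriole duplication that starts 3915 bases downstream of the Hspa4l gene model and shares no base with it, so the value cannot be given to 1 of the 2 genes. That row was at 30.43, 30.08 and 30.37 FPKM in control and 7.19, 7.77 and 7.74 in cKO libraries, without overlap. The log2 fold change of the shared row was -1.87 (SE 0.036, adjusted p = 8.7e-08).

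Genes with profiles nearest to these 3 were found among 8049 rows with 1 gene name and a mean of at least 5 FPKM, by the root mean square difference in log2(FPKM + 1) over the 6 spermatocyte libraries after the control mean was subtracted. Nearest to Hspa2 were Ttc21a (difference 0.029), Fhad1 (0.032) and Ldha (0.034). Ldha, which encodes the A subunit of lactate dehydrogenase, went from 198 ± 0.659 to 18.7 ± 0.415 FPKM. Ttc21a, a gene of intraflagellar transport, went from 16.4 ± 0.291 to 0.753 ± 0.0907, and Fhad1 from 13.6 ± 0.177 to 0.447 ± 0.0252. With 1 FPKM added, low genes such as Ttc21a and Fhad1 can lie near Hspa2 although their ratios of FPKM are larger. Nearest to Hspa1l were Actg2 (0.044), Gm884 (0.089) and Dyrk1b (0.090). Actg2, a gene of the myoid and endothelial marker list, went from 11.3 ± 0.146 to 1.48 ± 0.494 FPKM, while 8 of the 9 markers of that list rose. Dyrk1b, a kinase gene, went from 31.7 ± 0.326 to 5.51 ± 0.496. Nearest to the row of Hspa4l were Rb1cc1 (0.024), Tdrd7 (0.036) and Arl3 (0.039). Tdrd7, which encodes a Tudor protein of germ cell granules, went from 49.9 ± 1.87 to 12.87 ± 0.356 FPKM.

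Hspa1a and Hspa1b, the stress-induced HSP70 genes, lie beside Hspa1l on chromosome 17. Hspa1a (ENSMUSG00000091971.3, 34969190 to 34972156, minus strand, 1 exon) and Hspa1l point away from each other, with start sites 547 bases apart. Hspa1b (ENSMUSG00000090877.3, 34956436 to 34959238, minus strand, 1 exon) starts 12918 bases from Hspa1a. The 250 bases upstream of the 3 start sites are shown because neighbours with opposite changes share this stretch of the chromosome. The sequences are RefSeq promoters on GRCm38.p6, printed 5′ to 3′ on the strand of the gene, at chr17:34972157-34972406 for Hspa1a, chr17:34959239-34959488 for Hspa1b and chr17:34972453-34972702 for Hspa1l. Capitals mark a pair of inverted heat shock element units, searched as GAANNTTC and as TTCNNGAA, each of which reads the same on both strands.
Hspa1a: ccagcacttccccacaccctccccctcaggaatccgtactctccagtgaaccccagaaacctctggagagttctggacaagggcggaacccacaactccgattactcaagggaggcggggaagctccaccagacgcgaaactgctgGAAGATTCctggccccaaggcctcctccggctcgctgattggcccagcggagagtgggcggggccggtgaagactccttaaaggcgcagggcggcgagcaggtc
Hspa1b: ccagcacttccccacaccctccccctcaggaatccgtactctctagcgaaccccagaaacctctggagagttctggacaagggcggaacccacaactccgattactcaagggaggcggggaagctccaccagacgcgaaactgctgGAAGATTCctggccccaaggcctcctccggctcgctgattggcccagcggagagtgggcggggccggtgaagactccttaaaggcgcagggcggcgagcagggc
Hspa1l: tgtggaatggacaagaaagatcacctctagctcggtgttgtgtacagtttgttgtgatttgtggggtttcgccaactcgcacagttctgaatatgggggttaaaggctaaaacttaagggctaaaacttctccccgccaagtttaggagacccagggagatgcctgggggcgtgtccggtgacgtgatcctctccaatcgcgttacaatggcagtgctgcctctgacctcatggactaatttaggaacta

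The windows of Hspa1a and Hspa1b were identical at 247 of 250 bases. They differed by C44T, T47C and T249G, with the Hspa1a base first and positions counted from 1 at the 5′ end of the window. Both carried GAAGATTC, a match to GAANNTTC that begins 104 bases before the start site, and the Hspa1l window held neither form. Of 32817 promoter windows of this length, 6.69% held GAANNTTC, 7.16% held TTCNNGAA and 12.8% held at least 1 of them. Of the 10 members, 7 had an entry in the promoter table and 3 of these held 1 of the forms, namely Hspa1a, Hspa1b and Hsph1, the last with TTCNNGAA. Hspa8, Hsp90aa1 and Hsp90ab1 had no entry. For Hspa2 and Hspa4 the start of the entry was not found near the start of a GENCODE transcript of the gene. The Hspa2 window lies partly inside the gene model given above, so the search there did not cover only upstream bases. A match is a description of letters and not evidence of binding.

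In control spermatocytes Hspa1a was at 5.65, 5.97 and 5.66 FPKM, and in cKO spermatocytes at 17.94, 17.79 and 17.31. Hspa1b was at 6.72, 6.64 and 6.66 FPKM in control and 22.87, 21.46 and 22.59 in cKO libraries. For both genes every cKO library lay about 3-fold above every control library, with ratios of means of 3.07 and 3.34. The log2 fold changes were 1.47 (SE 0.035, adjusted p = 2.0e-07) and 1.60 (SE 0.034, adjusted p = 1.3e-07). The neighbour Hspa1l, whose values stand above, had changed in the other direction in the same libraries.

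The transcripts of Hspa1a and Hspa1b were 91.4% identical over 2729 aligned bases, and 47.1% of all 100-base stretches of Hspa1a occurred unchanged in Hspa1b. Reads can therefore be shared between them, and the authors' way of assigning such reads was not stated in any source used here, so the split between both genes is uncertain. For Hspa1a against Hspa1l the same measures were 78.3% and 4.67%, and against Hspa2 74.1% and 0%. Immediate early genes, a group also known to respond to tissue dissociation, rose in the same libraries in 11 of 11, with sums of 475 to 490 FPKM in control and 1637 to 1661 in cKO. Fos, the most abundant of them, rose from 116 ± 1.53 to 424 ± 2.08 FPKM. Hsf1, which encodes the main transcription factor that switches on heat shock genes, was at 5.09 ± 0.229 and 5.39 ± 0.389 FPKM. It had no call (adjusted p = 0.33, a gene chosen after its values were seen), and its RNA level does not show the activity of the protein. The part of dissociation or of other cells in the rise was not tested.

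**Figure D2:**
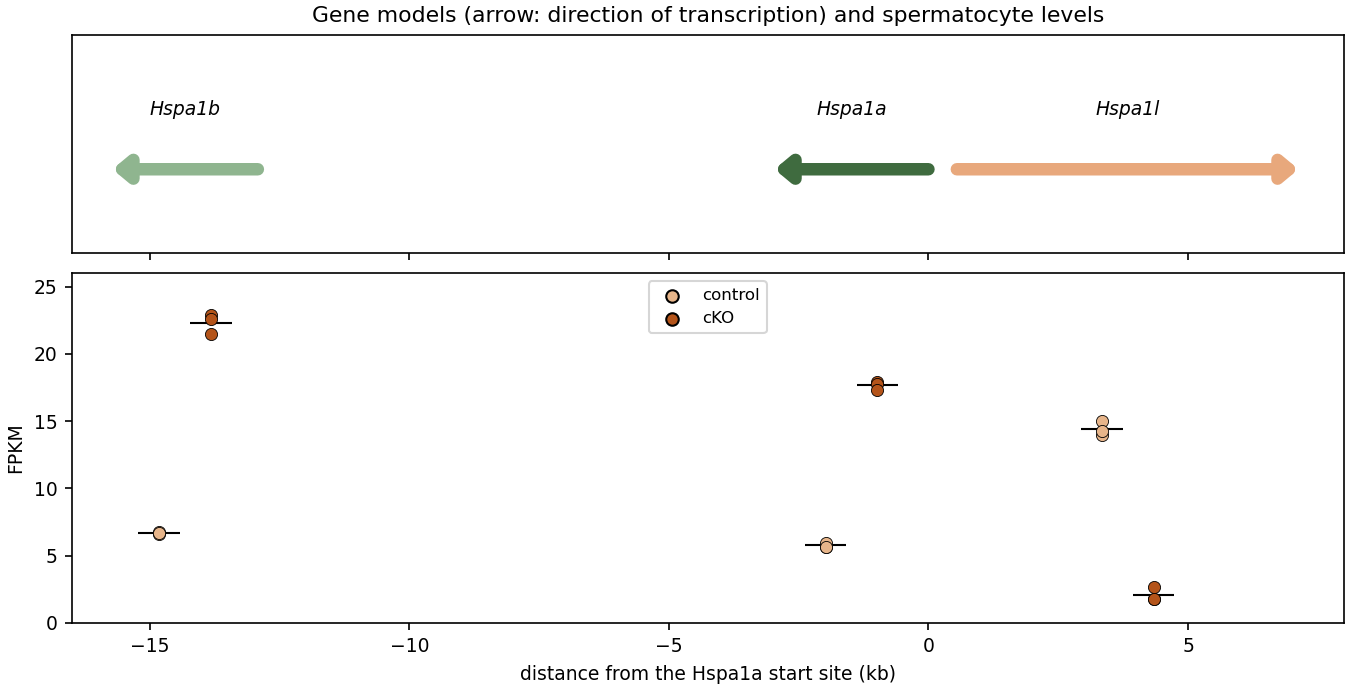
Gene models of Hspa1b, Hspa1a and Hspa1l as arrows along chromosome 17 by distance from the Hspa1a start site in kb (top), and FPKM in control and cKO spermatocytes (SC) beneath each model, with 1 point per library and the bar at the mean (bottom; points are shifted sideways to separate the groups). Hspa1a and Hspa1b go from about 6 to 17.7 and 22.3 FPKM, and Hspa1l goes from 14.4 to 2.07.

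Hspa8 encodes the constitutive HSP70 of most cells, and in spermatocytes its row also names 3 small nucleolar RNA genes that lie in its introns (Snord14c, Snord14d and Snord14e). It was at 163.2, 163.03 and 139.47 FPKM in control and 213.29, 281.93 and 215.88 in cKO libraries. The groups did not overlap, but each held 1 library that stood apart, control replicate 3 below and cKO replicate 2 above. The row rose by 0.60 on the log2 scale (SE 0.126, adjusted p = 0.0050), and the fitted change stayed called without either library, at 0.47 to 0.67 over all libraries left out in turn.

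Together the 5 cytosolic HSP70 genes summed to 508, 506 and 485 FPKM in control and 287, 355 and 288 in cKO libraries. Hspa2 supplied 62.5%, 62.5% and 65.8% of that sum in control and 10.9%, 8.73% and 10.4% in cKO spermatocytes. The row of Hspa8, which also names the small nucleolar RNA genes, supplied 32.1%, 32.2% and 28.7% and then 74.2%, 79.5% and 75.1%. The leading HSP70 row was thus Hspa2 in every control library and that of Hspa8 in every cKO library. Hspa1a and Hspa1b together went from 2.44% to 2.54% in control to between 11.1% and 14.2% in cKO. In GC2 Hspa8 made up at least 98.3% of the sum in every library.

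The HSP90 genes have separate promoters and encode closely related proteins, Hsp90aa1 being the form that is also stress-inducible and abundant in meiotic germ cells. Hsp90aa1 (chromosome 12, 110690605 to 110702728, minus strand) was at 420.89, 420.89 and 418.08 FPKM in control and 214.97, 211.36 and 218.57 in cKO libraries. It fell by 0.96 on the log2 scale (SE 0.022, adjusted p = 1.6e-07). Hsp90ab1 (chromosome 17, 45567775 to 45573271, minus strand) was at 433.86, 435.84 and 434.94 FPKM in control and 743.4, 744.56 and 748.6 in cKO libraries. It rose by 0.78 (SE 0.019, adjusted p = 2.4e-07). Every cKO library lay below every control library for the first gene and above for the second. The sum of both changed less, from 855, 857 and 853 to 958, 956 and 967 FPKM, so Hsp90aa1 went from 49.0% to 49.2% of the pair in control to between 22.1% and 22.6% in cKO spermatocytes. With quantile normalization the change of Hsp90ab1 was 0.51, still called.

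**Figure D3:**
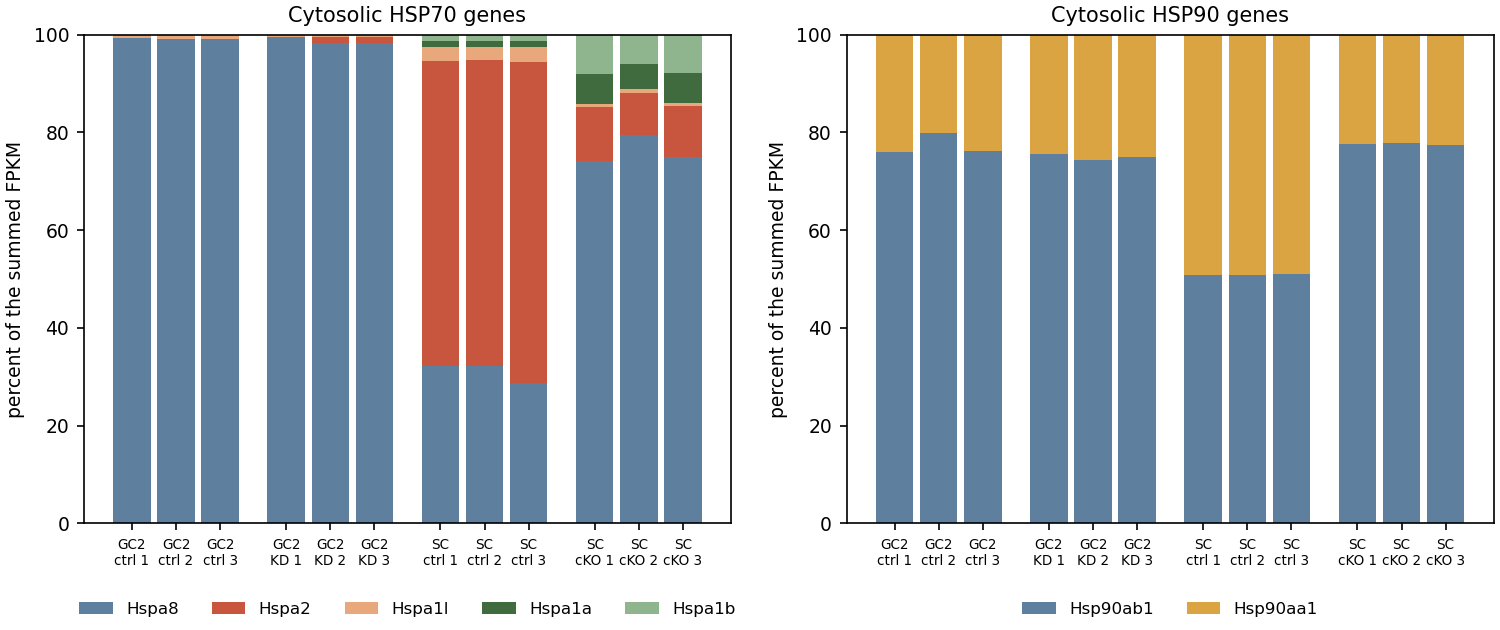
Share of each gene in the summed FPKM of the 5 cytosolic HSP70 genes (left) and of the HSP90 pair (right), in percent, with 1 stacked bar per library of GC2 cells and spermatocytes (SC). Hspa2 takes 62.5% to 65.8% of the HSP70 sum in control and 8.73% to 10.9% in cKO spermatocytes, and Hsp90aa1 takes 49.0% to 49.2% and 22.1% to 22.6% of the HSP90 pair.

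Of the HSP110-class genes beside Hspa4l, Hspa4 is expressed in most tissues. It was at 70.78, 71.19 and 71.91 FPKM in control and 51.25, 51.72 and 52.09 in cKO libraries. The groups were well separate, and the gene fell by 0.46 on the log2 scale (SE 0.021, adjusted p = 3.2e-06). With median centring that change was -0.30, still called. Hsph1, which is heat-inducible, was at 11.51, 11.73 and 10.99 FPKM in control and 11.19, 11.47 and 11.9 in cKO libraries. Those values overlapped, with a log2 fold change of 0.013 (SE 0.039) and no call (adjusted p = 0.78). It was the only member without a call in spermatocytes, and it was called higher with quantile normalization (0.13, adjusted p = 0.020) and with median centring (0.17, adjusted p = 0.0075).

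The second comparison asked how these chaperones differed when GC2 cells with PHB knockdown were set against control cells. Changes were small: Hspa1l fell, Hspa4l rose, and no other member was called. Of the 10 members 7 were tested, and 2 of these were called, against 24.5% of all 10791 tested rows (10.7% higher and 13.9% lower). Hspa1a, Hspa1b and Hspa2 did not reach 1 FPKM in 3 of the 6 libraries. In 4 of the 7 tested members the groups did not overlap, against 44.9% of all tested rows. The median log2 fold change was 0.16 over the 5 tested members outside the germ cell group and -0.038 over all tested rows. For Hspa4, Hspa4l, Hsp90aa1, Hsp90ab1 and Hsph1 the SE was larger in GC2 than in spermatocytes (0.099 and 0.022 for Hsp90aa1). For Hspa1l and Hspa8 it was smaller in GC2. The numbers of calls in both kinds of sample thus rest on this spread as well as on the size of the changes.

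Hspa1l was at 2, 2.18 and 2.25 FPKM in control and 1.27, 1.14 and 1.09 in knockdown libraries. Every knockdown library was lower, and the log2 fold change was -0.54 (SE 0.067, adjusted p = 0.0047). Because the level is low this value leaned on the pseudocount, and with 0.1 FPKM in place of 1 it was -0.83. Hspa4l, which had a row of its own in GC2, was at 4.48, 4.61 and 4.28 FPKM in control and 6.67, 6.7 and 6.66 in knockdown libraries. Every knockdown library was higher, and the log2 fold change was 0.49 (SE 0.049, adjusted p = 0.0024). Plk4, whose name stands on the spermatocyte row of Hspa4l, had its own row in GC2 at 10.3 ± 1.32 and 10.02 ± 1.98 FPKM, with no call (adjusted p = 0.86). A second row of Hspa4l, of assembled transcripts only, lay between 0 and 1.74 FPKM, and one of Hsp90ab1 between 0.48 and 3.11, neither with a call.

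Hspa2 was listed at 0 in all 3 control libraries and in knockdown replicate 1, and at 4.64 and 4.68 FPKM in knockdown replicates 2 and 3. It was not tested, and a listed 0 can be a failed estimate. Hspa1a was at 0, 0 and 0.01 FPKM in control and 0.01, 0.04 and 0.06 in knockdown libraries. Hspa1b was at 0.02, 0.16 and 0 FPKM in control and 0.12, 0.21 and 0.24 in knockdown libraries. Both stress-induced genes thus lay far under the level of 1 FPKM that the test required.

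Hspa8 was at 291.31, 297.08 and 289.06 FPKM in control and 277.16, 354.71 and 356.2 in knockdown libraries. Knockdown replicate 1 lay below every control and the other two above, and replicate 1 was also the knockdown library with Hspa2 at 0. The log2 fold change was 0.16 (SE 0.108, adjusted p = 0.34), and without knockdown replicate 1 it was 0.28 and called (adjusted p = 0.010).

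Hsp90aa1 was at 407.59, 317.65 and 386.69 FPKM in control and 417.42, 427.48 and 428.73 in knockdown libraries. Control replicate 2 stood well below the other controls, and the groups did not overlap, yet the change was not called (log2 fold change 0.20, SE 0.099, adjusted p = 0.20). Without control replicate 2 it was 0.096, also not called (adjusted p = 0.23). Hsp90ab1, the most abundant member in GC2, was at 1259.7 ± 23.5 and 1275.4 ± 29.2 FPKM (adjusted p = 0.73). Hsph1 was at 23.7 ± 3.58 and 28.4 ± 1.15 FPKM (adjusted p = 0.18), and Hspa4 at 113 ± 7.44 and 111 ± 8.15 (adjusted p = 0.88). Hsp90aa1 made up 20.2% to 24.1% of the HSP90 pair in control and 24.4% to 25.6% in knockdown libraries. In the same libraries fibroblast markers fell in 5 of 6 tested and rose in 1 (737 to 793 against 499 to 524 FPKM summed), led by Fn1 at 402 ± 21.7 and 256 ± 9.36 FPKM. Of 2 myoid and endothelial markers tested 1 fell (105 to 113 against 24.45 to 34.5 FPKM summed over the list). The 1 spermatogonial marker tested rose (29.3 to 34.4 against 47.1 to 59.5 FPKM summed). Sertoli cell markers rose in 3 of 6 and fell in 1, with sums of 223 to 232 against 227 to 228 FPKM. The part of these marker changes in the chaperone values was not tested.

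**Figure D4:**
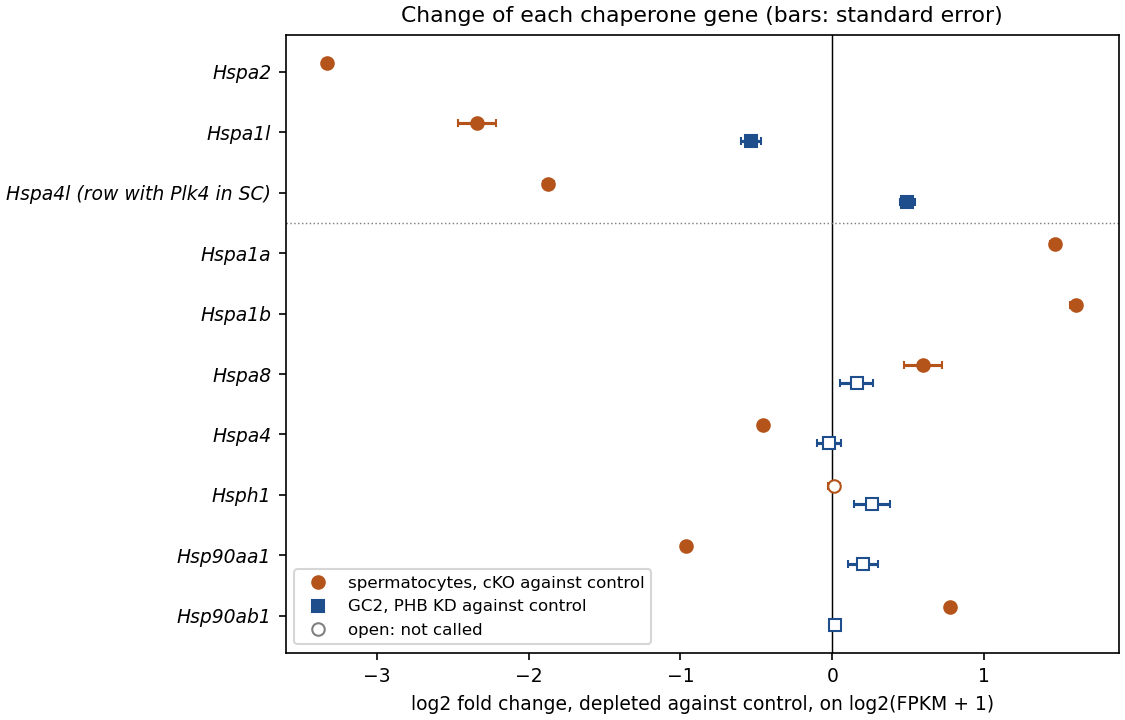
Log2 fold change of log2(FPKM + 1) for each member, depleted minus control, in GC2 cells (squares) and in spermatocytes (SC, circles); bars are ± 1 SE, filled symbols passed an adjusted p under 0.05, open symbols did not, and members without a square were not tested in GC2. Hspa2 lies at -3.32 and Hspa1l at -2.34 in spermatocytes, the row that Hspa4l shares with Plk4 lies at -1.87, and no tested member passes 0.54 in size in GC2.

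The difference between both changes was tested directly for the 7 members tested in both kinds of sample, in 1 fit of all 12 libraries. Of the 7, 5 differed, against 60.9% of the 9666 genes tested. The change in spermatocytes minus that in GC2 was -1.80 for Hspa1l (SE 0.148, adjusted p = 3.3e-06), so its fall was larger in spermatocytes. It was -1.17 for Hsp90aa1 (SE 0.106, adjusted p = 6.7e-06), -0.44 for Hspa4 (SE 0.083, adjusted p = 0.0012) and 0.76 for Hsp90ab1 (SE 0.036, adjusted p = 7.6e-08). It was -2.36 for Hspa4l (SE 0.058, adjusted p = 1.1e-09), but the spermatocyte row includes Plk4 and the GC2 row does not, so the compared quantities are not the same. Hspa8 (0.44, SE 0.179, adjusted p = 0.058) and Hsph1 (-0.25, SE 0.129, adjusted p = 0.13) had no call. The spermatocyte row of Hspa8 also names small nucleolar RNA genes and the GC2 row does not, so its compared quantities differ too. With quantile normalization the difference for Hsp90ab1 was 0.26 and no longer called (adjusted p = 0.076).

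The partners of these chaperones were followed as 8 lists, in which 68 of 78 tested genes were called in spermatocytes, 25 higher and 43 lower. That is 87.2% called, 32.1% higher and 55.1% lower, beside 79.4%, 40.9% and 38.5% of all tested rows, and several of the counts for single lists lie near the shares for all rows. Among J-domain proteins of the cytosol, which load substrates on HSP70, 13 of 19 fell and 4 rose in cKO spermatocytes (median -0.88). Dnajb3 fell from 132 ± 4.61 to 2.78 ± 0.322 FPKM, Dnajb13, known from the sperm flagellum, fell from 18.9 ± 0.531 to 0.753 ± 0.0306, and Dnajc5b went from 10.3 ± 0.485 FPKM to a listed 0 in each cKO library. Dnajb1, the heat-inducible partner of HSP70 and a gene chosen after its values were seen, fell from 71.1 ± 0.570 to 25.4 ± 0.434 FPKM. Of the members described above as induced by heat or stress, Hspa1a and Hspa1b rose, Hsp90aa1 fell and Hsph1 had no call. Of the BAG and HspBP1 exchange factors 5 of 7 fell and 1 rose, with Bag5 going from 71.3 ± 1.14 to 9.18 ± 0.0643 FPKM, Bag6 from 88.03 ± 0.688 to 56.1 ± 0.659 and Bag2 from 3.12 ± 0.131 to 8.50 ± 0.171.

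Of 17 HSP90 co-chaperones 10 rose and 5 fell in cKO spermatocytes, with a median of 0.18. Fkbp4, a co-chaperone of steroid receptors, fell from 191 ± 1.25 to 117 ± 0.813 FPKM, and Ttc4 fell from 41.4 ± 0.991 to 14.04 ± 0.827. Fkbp5, a co-chaperone induced by glucocorticoids, rose from 5.97 ± 0.06 to 13.2 ± 0.208. All 9 subunit genes of the CCT chaperonin, a ring that folds actin and tubulin, fell (median -0.73). Its testis subunit Cct6b went from 67.03 ± 1.38 to 0.453 ± 0.156 FPKM, the row of Tcp1 and Gm26130 from 211 ± 4.697 to 53.8 ± 1.87 and Cct5 from 131 ± 2.05 to 83.3 ± 0.437.

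Small heat shock proteins were split, with 3 of 8 higher and 4 lower. Hspb1 rose from 47.6 ± 1.20 to 206 ± 1.21 FPKM and Hspb8 from 2.49 ± 0.101 to 12.7 ± 0.42, whereas Hspb7 fell from 7.1 ± 0.225 to 0.127 ± 0.0737. Prefoldin subunits rose in 2 of 6 and fell in 2, with Vbp1 going from 9.81 ± 0.609 to 20.0 ± 0.473. The list of heat shock factors had 4 genes tested, 1 of which, Hsf2bp, encodes a binding partner of HSF2 with a role in meiotic recombination and not a transcription factor of this family. Of the factors themselves Hsf5, known from meiotic germ cells, fell from 48.5 ± 0.826 to 2.09 ± 0.234 FPKM. Hsf2bp fell from 12.2 ± 3.53 to 2.75 ± 0.506, and Hsf2 rose from 4.65 ± 0.101 to 5.28 ± 0.0436. Among HSP70 and HSP90 genes of other compartments and distant HSP70s 4 of 8 rose and 3 fell. Hspa5, the HSP70 of the endoplasmic reticulum, rose from 154 ± 0.193 to 267 ± 4.36 FPKM, and the row of Hsp90b1, Gm15344 and Gm25745, whose first gene encodes the HSP90 of that compartment, from 209 ± 2.98 to 273 ± 3.61. Hspa12a fell from 3.54 ± 0.0265 to 0.813 ± 0.0551.

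In GC2 the same lists had 16 of 68 tested genes called, 23.5% beside 24.5% of all tested rows, so their counts lay at the background. Of these, 5 were higher and 11 lower (7.35% and 16.2% of those tested, beside 10.7% and 13.9% of all rows). Among the higher genes only Bag3 is named here. HSP90 co-chaperones rose in 1 of 17 and fell in 3, with Stip1, which joins HSP70 to HSP90, going from 332 ± 4.53 to 289 ± 6.75 FPKM and Cdc37, which brings kinases to HSP90, from 25.3 ± 0.882 to 21.9 ± 0.503. Of 14 J-domain genes 1 rose and 2 fell, with Dnaja4 going from 3.18 ± 0.15 to 1.67 ± 0.0551 and Dnajc2 from 16.4 ± 1.38 to 11.2 ± 0.195. Of 6 exchange factors tested Bag3 alone was called, rising from 16.3 ± 0.644 to 19.4 ± 0.713 FPKM. CCT subunits rose in 1 of 8 and fell in 3, with Cct5 going from 238 ± 3.004 to 194 ± 0.66, Cct7 from 77.8 ± 0.820 to 64.4 ± 2.14 and Cct4 from 122 ± 7.52 to 92.0 ± 4.92. Of 5 small heat shock protein genes and 3 heat shock factor genes tested, none was called. Of 6 prefoldin genes 1 fell and 0 rose, and of 9 HSP70 and HSP90 genes of other compartments and distant HSP70s 1 rose and 2 fell. Trap1, the mitochondrial HSP90, fell from 33.2 ± 1.12 to 27.7 ± 2.04 FPKM.

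**Figure D5:**
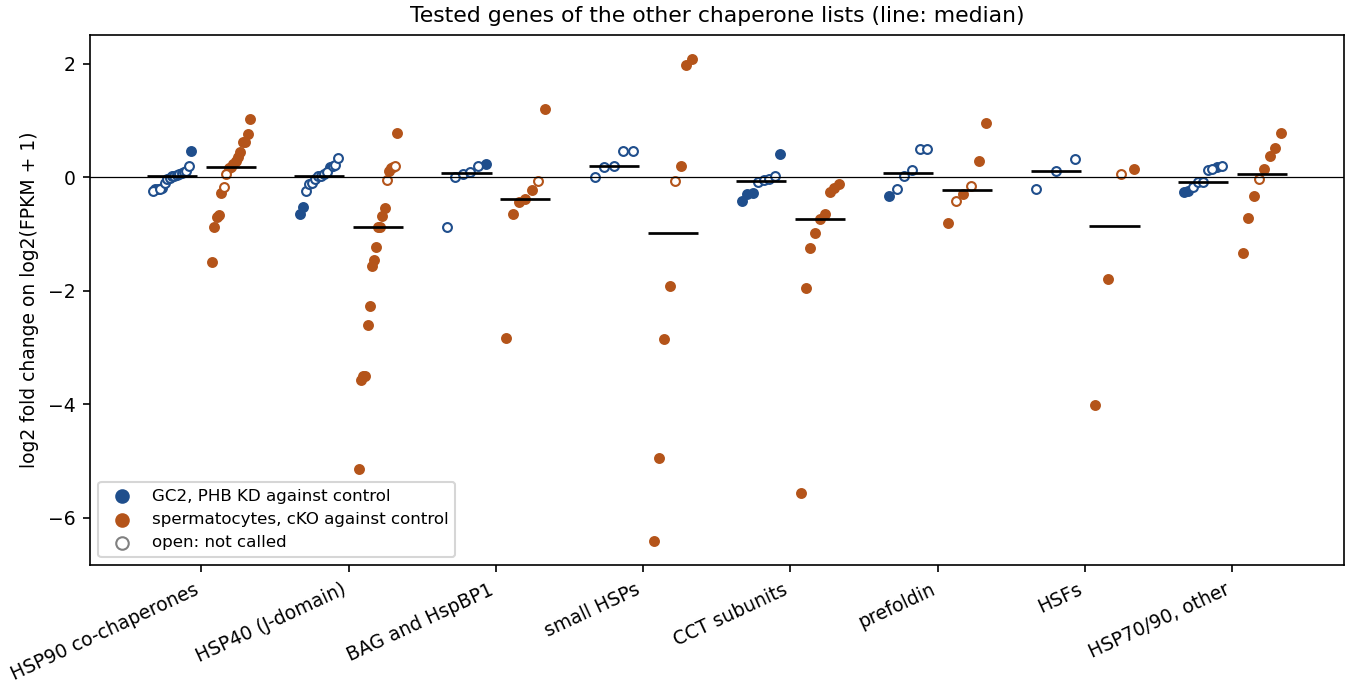
Log2 fold change on log2(FPKM + 1) of every tested gene in the 8 other chaperone lists, with GC2 knockdown against control in blue and cKO against control spermatocytes in orange; each point is 1 gene, filled where called and open where not, and the line is the median of the list. All 9 CCT genes and 13 of 19 J-domain genes were lower in spermatocytes, while in GC2 no list had more than 3 genes called in 1 direction.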

How the data were processed

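The deposited data are 12 tables of FPKM, 1 per library, that the authors wrote with 2 decimals. FPKM corrects for transcript length and library size and not for composition, so a group that takes more of the RNA lowers the others. The tools DESeq and HISAT2 (version 2.1.0) and the build names mm10 and GRCm38 come from the submitters' processing notes, which give them no order or role. Quantifier, annotation release and filters were not given in the sources used here. Samples were grouped by their labels. The GC2 tables share 1 set of 25911 rows and the spermatocyte tables another of 36987, so each kind was tested alone and levels were not compared between them. Rows without a gene name (2.11% to 3.93% of the FPKM total in GC2 and 0.750% to 0.918% in spermatocytes) were left out of the tests.

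Rows with at least 1 FPKM in 3 of the 6 libraries were tested with limma (version 3.58.1, R 4.3.3) with a variance trend on log2(FPKM + 1), two-sided, with Benjamini-Hochberg adjustment over all tested rows. Both changes were compared as an interaction in a fit of all 12 libraries. The scripts were tested on simulated data. Summaries used numpy 2.4.6, pandas 2.3.3 and matplotlib 3.10.9 in Python 3.11.15. Positions and transcript alignments used GENCODE M21 on GRCm38, and promoters RefSeq on GRCm38.p6.

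The members, lists and named genes were chosen with earlier results of these data known. Named were all members, Phb, Phb2 and up to 3 called genes with the smallest adjusted p per chaperone list, though some genes that this rule takes are not named. Also named were the most abundant gene per marker list and the 3 nearest profiles per germ cell member. Outside this rule stood Plk4, Hsf1, Dnajb1 and, in GC2, Ldhc and Sycp3. Alternatives were the pseudocount, the low-value filter, quantile normalization, median centring, summed rows, a replicate block and leaving out each library. Another scaled every library to a common total counted without mitochondrial rows, which stayed in the test. No pair of replicates held the same values, with at least 95.5% of tested rows differing.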

Additional observations from a re-analysis of the deposited data

Results flagged for a closer look

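The changes of 5 members differed between GC2 cells and spermatocytes by the direct test of that difference, given as the log2 fold change in spermatocytes minus that in GC2. Hspa1l stood at -1.80, with falls in all 3 depleted libraries of both kinds. Hsp90aa1 stood at -1.17, lower in 3 of 3 cKO libraries and higher, without a call, in 3 of 3 GC2 knockdown libraries. Hspa4 stood at -0.44 and Hsp90ab1 at 0.76, each called in spermatocytes and not in GC2. Hspa4l stood at -2.36, with a spermatocyte row that also names Plk4. The groups differ in kind of depletion (knockdown against conditional knockout), in cell source and in row set, which cannot be told apart here.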

How the results depend on the processing

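Of 354 recomputed member values under the alternatives, 338 kept direction and side of the threshold, 1 lost its call, 8 gained one and 7 changed sign, all without a call. Those were Hspa4 in GC2 and Hsph1 in spermatocytes. Hspa4 was at 0.030 with quantile normalization, 0.024 with median centring and 0.057 when scaled to a common total without mitochondrial rows. It was at 0.025 without control replicate 1 and 0.037 without knockdown replicate 3 (-0.070 to 0.037 over the libraries left out). Hsph1 was at -0.012 without control replicate 3 and -0.0090 without cKO replicate 3 (-0.012 to 0.032). The cause was not tested.

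The number of members called was 2 in GC2 (2 to 3 without 1 library), 9 in spermatocytes (9 without any 1 library, 10 with quantile normalization or median centring) and 5 for the difference (5 to 6 without 1 library, 4 with quantile normalization, 6 with median centring). Without the low-value filter it was 8 for the difference, because 10 members were then tested. Hspa8 gained a call for the difference with median centring (0.55), without knockdown replicate 3 (0.50) and without cKO replicate 1 (0.51). Hsph1 gained one without GC2 control replicate 1 (-0.33). The spermatocyte row of Hspa8 names small nucleolar RNA genes that its GC2 row does not.

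Calls over all GC2 rows fell from 2649 to between 1648 and 2168 without 1 library, and by over 1.5 times without control replicate 2 or 3 or knockdown replicate 2 or 3. In spermatocytes lower calls went from 6139 to 3618, 3595 and 3607 without control replicate 1, 2 and 3, when 13531 to 13543 of 15957 rows passed the filter, which still asked for 3 libraries. The all-row median was then 0.20 and the higher share of calls 63.4%; without 1 cKO library they were 0.0045 to 0.011 and 48.7% to 48.9%. Quantile normalization and median centring moved the median of all spermatocyte rows from 0.047 to 0.28 and 0.21 and the higher share of calls from 51.6% to 62.0% and 59.2%. In GC2 that share went from 43.5% to 53.6%, 52.7% and, when scaled to a common total without mitochondrial rows, 57.5%. Those rows held only 0.035% to 0.128% of the GC2 totals, and this setting also made the remaining totals equal.

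Replicate numbers did not pair the spermatocyte samples, and whether they pair the GC2 samples is not known. Same-numbered libraries correlated at 0.124, 0.078 and 0.061 in GC2, where every sample correlated best with its own number. In spermatocytes they correlated at 0.007, -0.054 and 0.007. The SE of Hspa4 in GC2 was 0.078 in the main fit and 0.030 with the replicate number as a block. With the replicate number as a block, 2 members were called in GC2, 9 in spermatocytes and 6 for the difference, with Hspa8 added (0.44, adjusted p = 0.045), and 1985 of all GC2 rows. Hspa1a and Hspa1b lay at 0 to 0.24 FPKM in GC2, too low to test.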
